A study of Nomascus leucogenys with 9 samples.

Results

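The JAK and STAT genes form a signalling family of cytokine-activated kinases, the transcription factors they phosphorylate and a feedback inhibitor. A list of 10 human Ensembl identifiers, set by symbol (STAT3, STAT4, STAT5A, STAT5B, STAT6, JAK1, JAK2, JAK3, TYK2 and SOCS1), was looked up in a table of 15356 gene rows. Of the 10 identifiers, 7 had a row, and they comprised 2 STAT genes, the 4 JAK genes and SOCS1. The other 3, ENSG00000168610 (STAT3), ENSG00000126561 (STAT5A) and ENSG00000173757 (STAT5B), had no row in the table used here and were not analysed here. The table holds RNA-seq of lymphoblastoid lines, blood lymphocytes transformed with Epstein-Barr virus (EBV) so that they keep dividing, from 9 northern white-cheeked gibbons (Nomascus leucogenys), in a study of the gibbon retrotransposon LAVA. The lines are named Vok, Ricky, Phyllis, Nancy, Melouprey, Khao, China, Bobby and Asia, each came from a different animal, and they form 1 group with no treatment, so the measurement is how far the lines differ. Each line was measured once, and animal, culture and EBV transformation cannot be told apart within a line. No age, and no number of EBV clones in a line, is given in the labels. The identifiers are in the human Ensembl format, and whether reads were counted against a human or a gibbon genome is not given.

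Cytokine receptors without an enzyme activity of their own hold JAK kinases on their inner side. When a cytokine brings receptor chains together, the JAKs phosphorylate each other, the receptor and then STAT proteins, which pair, enter the nucleus and bind DNA. JAK1, JAK2 and TYK2 serve many receptors in most tissues, whereas JAK3 binds the common gamma chain shared by interleukin receptors of lymphocytes. In B cells, STAT6 carries the interleukin-4 signal that drives IgE class switching and CD23, and STAT4 is best known for interleukin-12 signalling in T and NK cells. SOCS1 is induced by STATs and shuts the pathway off by blocking JAK activity and marking JAKs for degradation.

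Values are log2 expression on the authors' common scale, and a level is also given in ppm, parts per 1000000, of the summed linear values of a line. The 9 linear totals lay between 13728358 and 14059842, and sequencing depth is unknown. Rows with a mean under 1 ppm were set aside, the remaining 12590 served as the comparison set, and all 7 genes passed this filter. The table gave identifiers without symbols and no other gene could be named, so marker genes of B cells and of other cell types, and the receptors, ligands, inhibitors and targets of the pathway, could not be looked up, and the labelled cell type was not checked. Gene length and the unit's length correction are not given, so levels of different genes are not compared. In bulk samples, fewer cells of a type and less RNA per cell cannot be told apart. The Asia, China and Nancy lines stood at one end of the first principal component of all kept rows (34.2% of the variance), with scores of 47.96, 18.76 and 20.18 against -20.93 to -9.93 in the others.

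The STAT genes with a row both had a mean above 100 ppm, and STAT6 varied less between lines than most rows of the table. STAT6 (ENSG00000166888), the interleukin-4 responsive factor, had a log2 level of 12.09 in Asia, 12.20 in Bobby, 12.02 in China, 12.24 in Khao, 12.30 in Melouprey, 11.92 in Nancy, 12.17 in Phyllis, 12.04 in Ricky and 12.05 in Vok. The mean was 12.12 ± 0.12 (SD, n = 9), or 319.3 ppm, and the lowest and highest lines, Nancy and Melouprey, differed by 1.30-fold. Neighbouring lines in the order of STAT6 levels lay at most 0.10 log2 units apart, and no line stood alone. In RefSeq's gene table for the gibbon assembly Asia_NLE_v1, STAT6 overlaps NAB2, and whether reads were counted by strand is not given, so reads of the overlap could belong to either gene.

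STAT4 (ENSG00000138378), the interleukin-12 responsive factor, varied more. Its log2 level was 11.28 in Asia, 11.11 in Bobby, 11.41 in China, 11.55 in Khao, 10.51 in Melouprey, 11.30 in Nancy, 10.96 in Phyllis, 11.02 in Ricky and 10.92 in Vok. The mean was 11.12 ± 0.31 (SD, n = 9), or 162.4 ppm, with a 2.06-fold range. Melouprey was lowest, 0.41 log2 units or 1.33-fold below Vok, the next line, and without Melouprey the range was 1.55-fold. The other 8 lines formed a graded series from Vok to Khao. The deviation of Melouprey from the STAT4 median, -0.59 log2 units, was matched or exceeded on the low side by 2.06% of the other kept rows in that line.

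**Figure D1:**
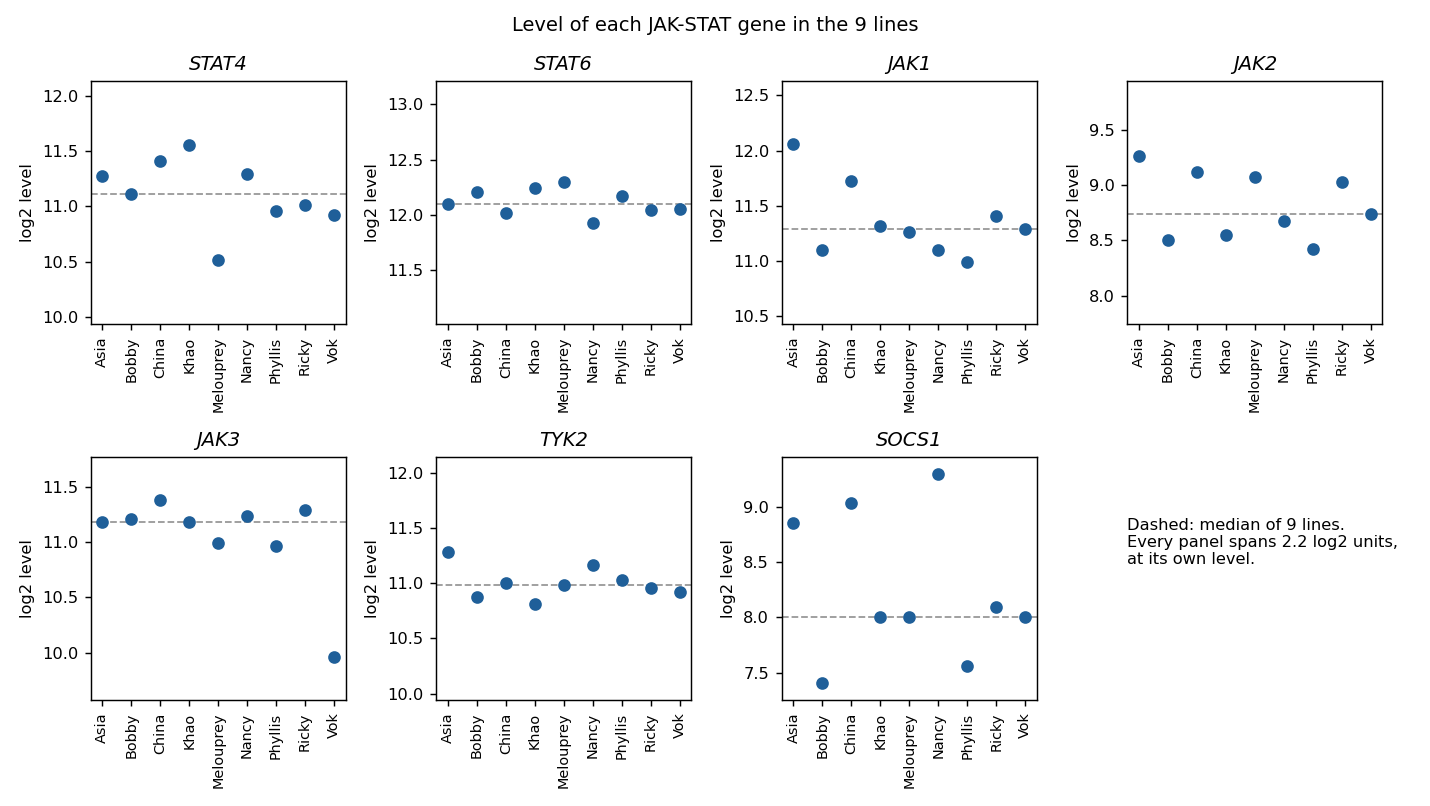
Log2 level (y axis) of the 7 JAK-STAT genes with a row in each of the 9 lines (x axis), with 1 point per line and the median of the lines dashed; each panel covers the same height on the log2 scale at its own level. STAT6 and TYK2 are nearly flat, JAK3 is low in Vok alone, and SOCS1 is highest in Nancy, China and Asia.

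Of the kinases, JAK1 and JAK2 were graded over the lines and highest in the same pair of lines. JAK1 (ENSG00000162434), which serves interferon and many interleukin receptors, had a log2 level of 12.06 in Asia, 11.10 in Bobby, 11.73 in China, 11.32 in Khao, 11.27 in Melouprey, 11.10 in Nancy, 10.995 in Phyllis, 11.41 in Ricky and 11.29 in Vok. Asia lay 0.33 log2 units, 1.26-fold, above China, and the other 7 lines lay between 10.995 and 11.41. The mean was 11.36 ± 0.34 (SD, n = 9), or 194.1 ppm, and the range was 2.10-fold, or 1.66-fold without Asia.

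JAK2 (ENSG00000096968), the kinase of the erythropoietin, growth hormone and interferon-gamma receptors, had a log2 level of 9.26 in Asia, 8.50 in Bobby, 9.12 in China, 8.54 in Khao, 9.07 in Melouprey, 8.68 in Nancy, 8.42 in Phyllis, 9.02 in Ricky and 8.74 in Vok. The largest gap in the order, 0.29 log2 units, separated 4 lines (Asia, China, Melouprey and Ricky) from the other 5. The mean was 8.82 ± 0.31 (SD, n = 9), or 33.0 ppm, with a 1.80-fold range. In the RefSeq table JAK1 overlaps RAVER2, and JAK1, JAK2 and STAT4 overlap loci without an assigned symbol. The same limit as for STAT6 holds for these 3 genes. JAK3 was not found in that table by symbol, nor were STAT5A and STAT5B, so overlaps of JAK3 could not be looked up.

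JAK3 (ENSG00000105639), the lymphocyte kinase of common gamma chain receptors, was alike in 8 lines and low in 1. Its log2 level was 11.19 in Asia, 11.21 in Bobby, 11.38 in China, 11.18 in Khao, 10.99 in Melouprey, 11.23 in Nancy, 10.97 in Phyllis, 11.29 in Ricky and 9.96 in Vok. Vok lay 1.002 log2 units, 2.003-fold, below Phyllis, the next line. The mean was 11.04 ± 0.43 (SD, n = 9), or 156.3 ppm, and the range was 2.67-fold. Without Vok the range was 1.33-fold and the SD was 0.14. Dixon's gap criterion, which compares the distance from the farthest line to its nearest neighbour with the whole range, gave 0.707 in JAK3. Its critical value for 9 samples was passed by 1 of the 7 genes, JAK3, and by 10.1% of all kept rows. Only 83 of the other kept rows (0.659%) were as far or farther below their median in Vok, where JAK3 deviated by -1.22 log2 units.

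TYK2 (ENSG00000105397), which acts at the interferon-alpha and interleukin-12 receptors, was the steadiest kinase. Its log2 level was 11.28 in Asia, 10.87 in Bobby, 11.002 in China, 10.81 in Khao, 10.98 in Melouprey, 11.16 in Nancy, 11.03 in Phyllis, 10.96 in Ricky and 10.92 in Vok. The mean was 11.002 ± 0.14 (SD, n = 9), or 147.8 ppm, with a 1.38-fold range. Asia and Nancy were above the rest by 0.14 log2 units, and the other 7 lines lay between 10.81 and 11.03.

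SOCS1 (ENSG00000185338), the feedback inhibitor, differed most between lines of the 7 genes. Its log2 level was 8.86 in Asia, 7.40 in Bobby, 9.03 in China, 7.998 in Khao, 8.005 in Melouprey, 9.30 in Nancy, 7.56 in Phyllis, 8.09 in Ricky and 8.003 in Vok. The mean was 8.25 ± 0.66 (SD, n = 9), and the range of 3.72-fold ran from 12.1 ppm in Bobby to 45.1 ppm in Nancy. The lines fell at 3 heights: Nancy, China and Asia on top, Ricky, Melouprey, Vok and Khao within 0.10 log2 units of each other, and Phyllis and Bobby below. The largest gap, 0.76 log2 units or 1.69-fold, separated the top 3 lines from Ricky. These are the 3 lines that stood apart on the first principal component, and the part of that shift in the SOCS1 levels was not tested. In Nancy, 1.57% of the other kept rows were as far or farther above their median, in China 1.93% and in Asia 4.34%.

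Against the whole table, the set held both wide and narrow members. The lowest and highest lines differed 2-fold or more in 4 of the 7 genes (STAT4, JAK1, JAK3 and SOCS1) and in 26.4% of all kept rows. In the class at or above 100 ppm, where all of the genes but JAK2 and SOCS1 lie, the share was 18.5%, and between 10 and 100 ppm, where JAK2 and SOCS1 lie, it was 24.6%. Of these 4 genes, 3 fell short of the mark when 1 particular line was left out: STAT4 without Melouprey or without Khao, JAK1 without Asia or without Phyllis, and JAK3 without Vok. SOCS1 kept it with any 1 line left out. No gene reached 4-fold. The SD of SOCS1 was above that of 94.1% of the kept rows, that of JAK3 above 83.7%, that of JAK1 above 75.2%, that of STAT4 above 71.2% and that of JAK2 above 70.7%. The SD of TYK2 was above 20.3% of the rows and that of STAT6 above 11.5%, where the median row had an SD of 0.22. The list is small and counts of this size are a description.

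**Figure D2:**
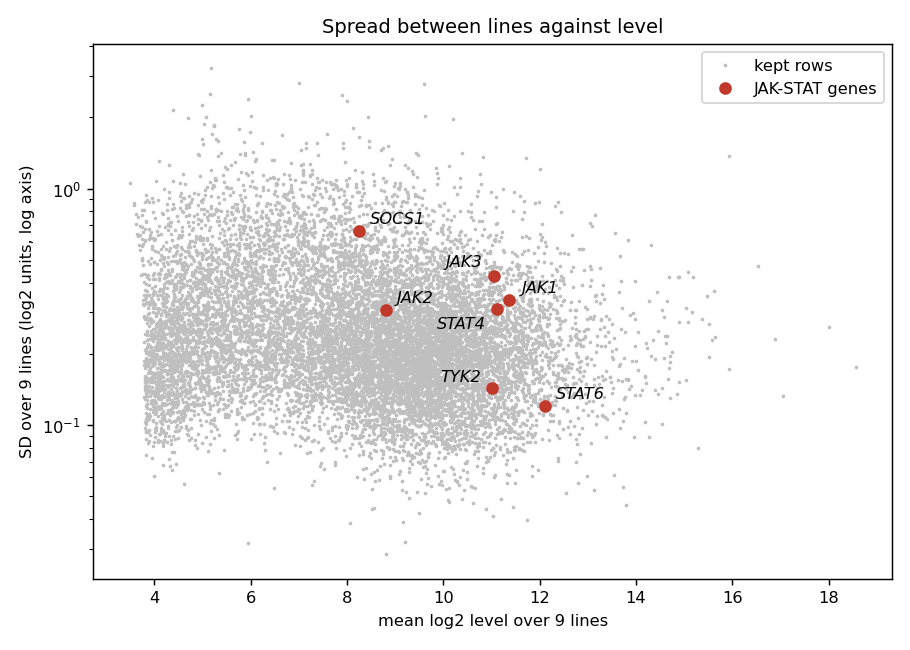
SD over the 9 lines (y axis, log2 units on a log axis) against mean log2 level (x axis) for the 12590 kept rows (grey) and the 7 JAK-STAT genes (red). SOCS1, with an SD of 0.66, lies near the upper edge at its level, and STAT6, with 0.12, near the lower edge.

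limma's test of each row's variance against rows of like level, with Benjamini-Hochberg adjustment over 12590 rows, called 0 rows (0%), with 658 rows (5.23%) at an unadjusted p under 0.05. The variance of SOCS1 was 9.69 times the prior (unadjusted p = 0.053, limma adjusted p = 0.904), that of JAK3 5.52 times (adjusted p = 0.904) and that of JAK1 3.42 times (adjusted p = 0.946). Without Vok the ratio of JAK3 was 0.74. The variances of STAT6 and TYK2 were 0.43 and 0.63 times the prior. Row variances differ so widely that the prior had 2.75 degrees of freedom, and a count of 0 from such a prior does not show that the genes vary alike.

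Read by line, Asia and China were above the median in most of the 7 genes, and Phyllis and Vok were below it in most. Asia was above the median in 5 of the 7 genes, below it in 0, and had the highest JAK1, JAK2 and TYK2. Deviations as high as these were found in Asia in 4.99% of the other kept rows for JAK1, 9.51% for JAK2 and 20.4% for TYK2. China was above the median in 6 genes, with JAK1 up by 0.44 and SOCS1 up by 1.03 log2 units from the median. Nancy had the highest SOCS1, at 1.30 log2 units above the median, together with the lowest STAT6, at -0.17, while its JAK1 was -0.18 and its JAK2 -0.06. Phyllis was below the median in 5 genes and had the lowest JAK1 and JAK2, at -0.29 and -0.32. Melouprey combined the lowest STAT4, at -0.59, with the highest STAT6, at 0.20. Vok was below the median in 5 genes and above it in 0. It deviated by -1.22 in JAK3 and by at most 0.18 in size in the other genes. Ricky stayed within 0.29 log2 units of the median in every gene. Over all kept rows, the SD of a line's deviations was 0.53 log2 units in Asia, 0.42 in Nancy, 0.40 in Vok and 0.39 in China, and 0.22 to 0.32 in the others. How many of the kept rows lay above or below their median in each line was not counted, so the gene counts are a description.

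**Figure D3:**
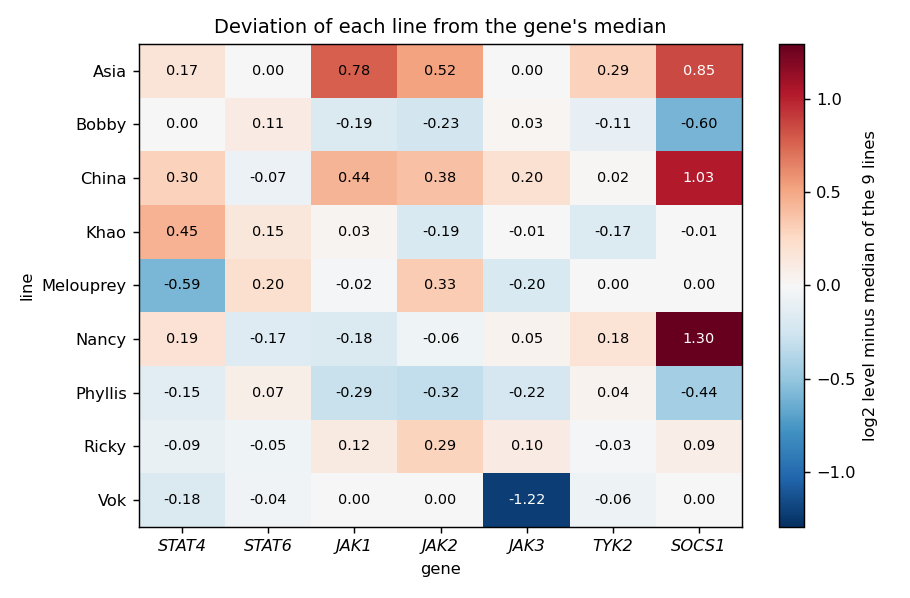
Deviation of each line (rows) from the median of the 9 lines for each of the 7 JAK-STAT genes (columns), in log2 units, printed in each cell and coloured blue for below and red for above. The largest deviations are SOCS1 in Nancy (1.30) and China (1.03) and JAK3 in Vok (-1.22).

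The balance between kinases within a line, which cancels any offset of that line's library, was steadiest for JAK1 against JAK2. The log2 ratio of JAK1 to JAK2 had an SD of 0.19 over the lines (n = 9) and a 1.52-fold range, from Melouprey, 0.38 below the median ratio, to Asia, 0.22 above it. The log2 ratio of TYK2 to JAK1 had an SD of 0.30 and a 1.80-fold range, lowest in Asia and China and highest in Nancy and Phyllis. The log2 ratio of JAK3 to JAK1 had an SD of 0.48 and a 2.74-fold range. It was lowest in Vok, at -1.18 from the median ratio, where JAK3 was low, and next lowest in Asia, at -0.74, where JAK1 was high. Without Vok its range was 2.01-fold.

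Across the 9 lines, JAK1 and JAK2 rose and fell together more closely than any other pair of the 7 genes. Pearson's r was 0.83 (exact two-sided permutation p = 0.0013, n = 9) and Spearman's rho was 0.83 (exact permutation p = 0.0083). The value of r lay between 0.77 and 0.91 when any 1 line was left out, and was 0.74 (exact permutation p = 0.015) given the score on the first principal component. Without Asia and China, the lines farthest from the median of either gene, it was 0.69 (exact permutation p = 0.094, n = 7). The call was thus lost without both lines, but 7 lines also give the test less power, and these were not told apart. Without Asia alone the exact permutation p was 0.016, and without China alone it was 0.0051 (n = 8). A limma fit of every kept row on the level of JAK1 gave JAK2 a slope of 0.75 ± 0.19 (SE), with an unadjusted p of 0.0029, below the 0.05 mark that 15.7% of all rows passed. Its limma p adjusted over all rows was 0.123. In the fit on JAK2, JAK1 had a slope of 0.91 ± 0.23 (SE), an unadjusted limma p of 0.0025, where 5.52% of rows passed 0.05, and an adjusted p of 0.889. Only 0.246% of the other rows had a larger moderated t in size in that fit, and 2.38% in the fit on JAK1. The pair therefore ranks high among all rows but misses the threshold once all rows are counted.

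SOCS1 went with lower STAT6 and higher TYK2, but neither relation held throughout. Of the 21 pairs compared, 3 had an exact permutation p under 0.05 for Pearson's r, JAK1 with JAK2 and these. For STAT6 and SOCS1, r was -0.70 (exact two-sided permutation p = 0.038, n = 9) and rho was -0.72 (exact permutation p = 0.037). Without Nancy, the line with the lowest STAT6 and the highest SOCS1, r was -0.54 (exact permutation p = 0.18, n = 8). Without Melouprey and Nancy, the farthest lines in STAT6, it was -0.63 (exact permutation p = 0.15, n = 7), and in the whole-table fits its limma adjusted p was 0.512 on STAT6 and 0.40 on SOCS1. Without China and Nancy, the farthest in SOCS1, r was -0.35 (exact permutation p = 0.46, n = 7), and given the score on the first principal component it was -0.49 (permutation p = 0.18). Leaving out Bobby, China or Phyllis also took the exact permutation p above 0.05, to at most 0.068. The call thus depends on several lines. For TYK2 and SOCS1, r was 0.67 (exact permutation p = 0.048, n = 9) and rho was 0.63 (exact permutation p = 0.076). Without Asia and Nancy r was 0.29 (exact permutation p = 0.54, n = 7), and without China and Nancy it was 0.71 (exact permutation p = 0.10, n = 7). The call thus depends on the lines left out, and the exact permutation p exceeded 0.05 in 7 of the 9 cases with 1 line left out. Given the score on the first principal component it was -0.05 (exact permutation p = 0.90), and the limma adjusted p was 0.263 on TYK2 and 0.382 on SOCS1. The other 18 pairs had r between -0.47 and 0.55, with a smallest exact permutation p of 0.127 (n = 9). That pair was JAK2 with SOCS1, whose rho was 0.70 (exact permutation p = 0.043), and whose r rose from 0.55 to 0.82 without Nancy (exact permutation p = 0.0057, n = 8). STAT4 with TYK2 had r = 0.05 in all 9 lines and -0.76 given the first principal component (permutation p = 0.012). STAT4 with STAT6 went from -0.37 to -0.73 without Khao (exact permutation p = 0.036, n = 8). STAT4 with SOCS1 went from 0.45 to 0.81 without Khao and Melouprey (exact permutation p = 0.042, n = 7).

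**Figure D4:**
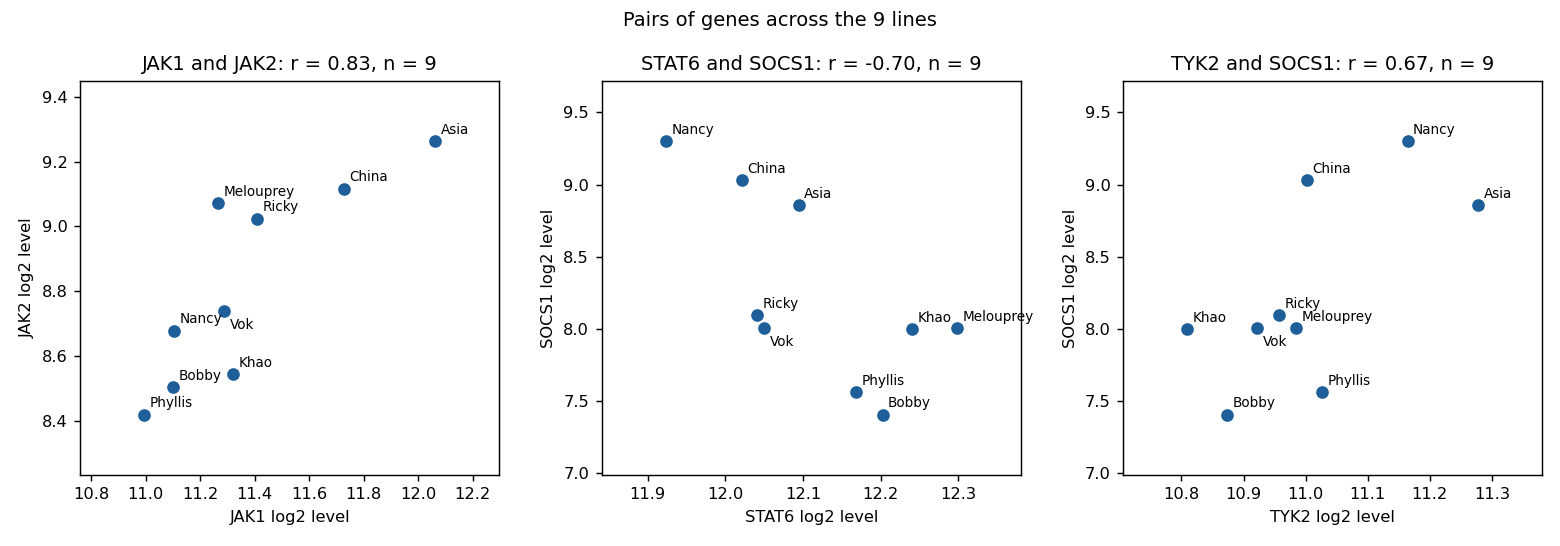
Log2 levels of JAK1 and JAK2 (left), STAT6 and SOCS1 (middle) and TYK2 and SOCS1 (right) on the x and y axes, with 1 labelled point per line. JAK1 and JAK2 rise together over the 9 lines (r = 0.83), while the other 2 panels, with r = -0.70 and 0.67, have Nancy, China and Asia at the top of the SOCS1 axis.

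The fits over the whole table give the background for every pair. Rows called at a limma adjusted p under 0.05 numbered 0 of 12589 (0%) in the fits on STAT4, STAT6 and JAK2, 54 (0.429%) on JAK1, 123 (0.977%) on JAK3, 17 (0.135%) on TYK2 and 19 (0.151%) on SOCS1. At an unadjusted p under 0.05 the counts were 1849, 1014 and 695 for STAT4, STAT6 and JAK2. None of the called rows was 1 of the other 6 genes in any of the 7 fits, and the smallest adjusted p among the 42 readings was 0.123. These counts moved with single lines. The fit on JAK3 called 0 rows without Vok, without Bobby, without Nancy or without Ricky, and 6 without Phyllis. The fit on JAK1 called 0 without Asia, Bobby, China or Phyllis, 18 without Melouprey, 25 without Khao and 202 without Nancy. The fit on TYK2 called 0 without Asia, Bobby, China or Nancy, 1 without Ricky, 3 without Melouprey and 26 without Phyllis. The fit on SOCS1 called 52 without Nancy, 32 without Vok, 0 without Phyllis, and 1 to 7 without Bobby, China, Khao, Melouprey or Ricky. Without Nancy, the fit on STAT6 called 1. With Nancy left out, SOCS1 was called in the fit on JAK1 (slope 1.51 ± 0.24, limma adjusted p = 0.028), where r was 0.92 against 0.54 in all 9 lines (exact permutation p = 0.0021 with n = 8 and 0.13 with n = 9). That was the only reading among the 7 genes to be called under any of the 17 settings run.

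**Figure D5:**
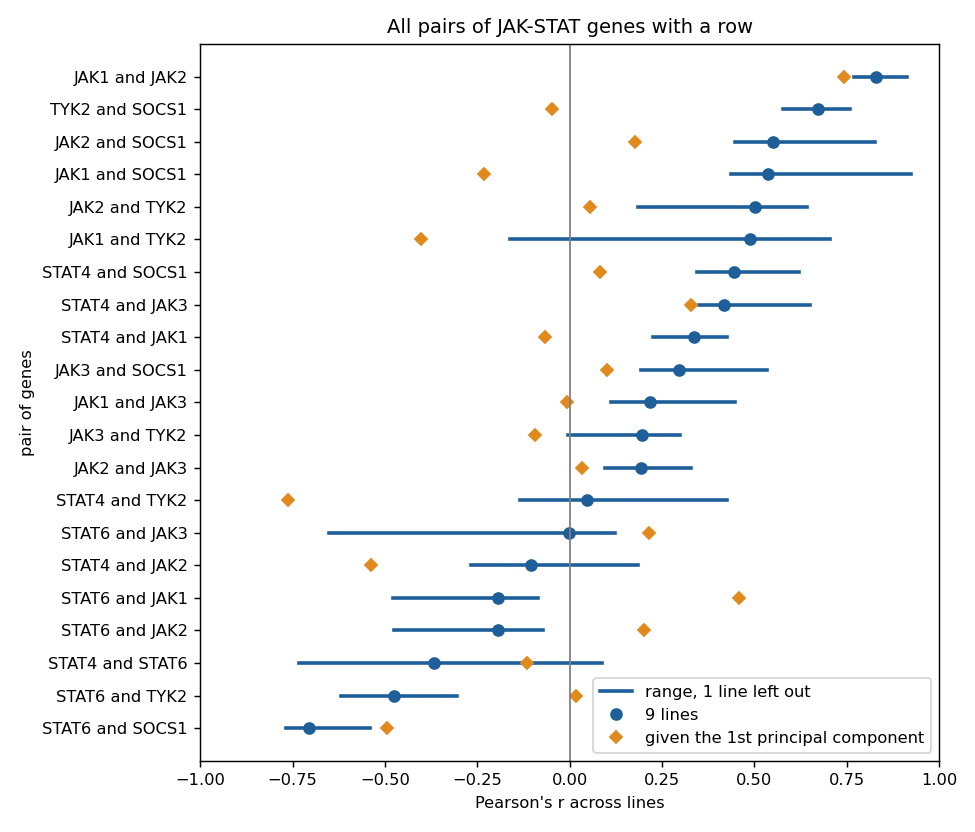
Pearson's r across lines (x axis) for the 21 pairs of the 7 JAK-STAT genes (y axis), as points for 9 lines, bars for the range with 1 line left out, and diamonds for r given the score on the first principal component. JAK1 and JAK2 stay above 0.7 on all 3 measures, and TYK2 and SOCS1 fall from 0.67 to -0.05 given the component.

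The 2 rows that rose most closely with SOCS1 spanned more than SOCS1 itself did. They are given by identifier, because the table does not pair identifiers with symbols, and were chosen after their values were seen. ENSG00000019991 ran from 5.75 log2 units in Bobby to 10.31 in Nancy and had a slope on SOCS1 of 2.27 ± 0.23 (SE, limma adjusted p = 0.018, r = 0.96 over 9 lines). ENSG00000166402 ran from 4.53 in Phyllis to 6.93 in Nancy, with a slope of 1.18 ± 0.13 (limma adjusted p = 0.018, r = 0.96). Both were highest in Nancy, China and Asia, as SOCS1 was. In the opposite direction, ENSG00000226887 (slope -0.79 ± 0.12) and ENSG00000146386 (slope -0.70 ± 0.11) each had a limma adjusted p of 0.0497, and both had their 3 lowest levels in those lines. All 4 rows were picked by their fit on SOCS1, which favours rows that set these 3 lines apart. ENSG00000166402 did not pass the filter of 5 ppm. With the first principal component in the model, none of the 4 rows passed (limma adjusted p of 0.399 to 0.713). With 1 line left out, the limma adjusted p ran from 0.015 to 0.096 for ENSG00000019991, from 0.030 to 0.096 for ENSG00000166402, from 0.048 to 0.15 for ENSG00000226887 and from 0.030 to 0.15 for ENSG00000146386, each with its slope in the same direction. The rows that fell missed the threshold in 8 of those 9 fits.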

How the data were processed

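The submitters' processing notes name Trimmomatic, STAR, edgeR and DESeq2, without version or role. No source used here gives the genome build, annotation, strandedness or normalization. The authors deposited values on a log scale, read here as log2 expression, although the base is not stated. The values ran from 0.71 to 18.66. The highest value was the same, 18.6589, in every line but Melouprey and Phyllis, and 18.2611 in both of these. Whether the lines had been brought to a common distribution before deposit was not tested. Every fold assumes base 2, and any shrinkage before deposit alters the spread of low rows most. The effect of any scaling before deposit on these spreads is not known. The last 2 names of the header line were separated by a space and were split there. Columns matched lines by name, and 0 columns were left unused. Symbols come from the member list. RefSeq's table (33914 genes) served for neighbouring genes only, and 0 identifiers matched its Ensembl column.

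Members, lists and tests were chosen with earlier results of these data known. limma 3.58.1 in R 4.3.3 was fitted to all kept rows, with trend and robust eBayes, once for row variance and once on the level of each gene. Slopes and variance calls were checked on simulated data. Apart from the changed rows, the simulated rows had a common SD and independent noise. The check therefore does not cover rows as unequal in variance, or as correlated, as those here. The planned fit on STAT3, the ratios of STAT5A to STAT5B and of STAT3 to SOCS1, the pathway and marker lists, promoter motifs and proteins could not be run for want of those rows, names or sequences. The rule for named genes took all 10 members and the rows most like STAT3, for which SOCS1 was substituted after its values were seen. Correlations were tested over all 362880 orders of the lines. For the test given the first principal component, residuals were permuted, which is approximate. The p-values of pairs and slopes rest on the spread among 9 animals with 1 culture each. Those of the variance test set a row's spread over these lines against that of other rows.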

Additional observations from a re-analysis of the deposited data

Results flagged for a closer look

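Of 14 sets of 9 values checked for 1 line far from the others, JAK3 was the 1 that gave one. They are the levels of the 7 genes, 3 kinase ratios and the 4 rows most like SOCS1. The JAK3 level in Vok, 9.96 log2 units, lay 1.002 log2 units below the next line. Chance flags about 1 in 20 such sets, and 10.1% of all kept rows met the same criterion. In the other 6 genes Vok deviated from the median by at most 0.18 log2 units in size.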

How the results depend on the processing

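The settings for spread, variance and pairs were planned, except that leaving out the 2 lines farthest in the second gene of a pair was added after seeing the data, and those planned for STAT3 were applied to the other genes after its absence was seen. No paired analysis was possible because all lines belong to 1 group. The number of genes spanning at least 2-fold was 4 under every rescaling and pseudocount and 3 to 4 with 1 line left out. The lines were already alike in linear total and mostly in highest value, so rescaling could move these ranges little. A pseudocount of 1 is small beside levels of 7.40 log2 units or more, so neither is a strong check. The variance test called 0 rows in every setting run. Its prior came from the same rows and had only 2.53 to 2.89 degrees of freedom, so these repeats are not a strong check either. Of 497 values under other settings, 399 kept their direction and side of the threshold, or stayed near the reported value. Many of these had no call to lose, and the variance ratio of JAK3 without Vok, 0.74 against 5.52, counts among them. Where rows were called, the count differed from the reported one in every fit with 1 line left out. It moved far from the reported one in 7 of these 9 fits for JAK1, 7 for TYK2, 8 for SOCS1 and 5 for JAK3. Smaller changes were taken as near, such as 41 against 54 rows for JAK1 and 83 or 162 against 123 for JAK3. With the first principal component in the model, the fits on JAK1, TYK2 and SOCS1 called 0 rows and that on JAK3 called 190. The fit on SOCS1 called 7 rows after shifting columns to a common median, after quantile normalization and with no filter, 2 with a filter of 5 ppm and 38 with a prior without trend. With that prior, the fit on JAK3 called 73, and with no filter the fit on TYK2 called 10. Leaving out 1 line gave 0 to 202 rows for JAK1, 0 to 162 for JAK3, 0 to 52 for SOCS1, 0 to 26 for TYK2, 0 to 1 for STAT6 and 0 for STAT4 and JAK2. The causes of these changes were not tested. Pairs with an exact permutation p under 0.05 numbered 3 as reported and 1 after quantile normalization, JAK1 with JAK2. Without the 2 lines farthest in the first gene none of the 3 passed, and 1 other pair did, STAT4 with SOCS1. With 1 line left out, 1 to 3 pairs passed. For TYK2 and SOCS1, r was -0.048 given the first principal component. With no depth given, counting error could not be separated from the spread between lines.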
